A study of Homo sapiens with 6 samples.

Results

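The genes described here are 7 cathepsins (CTSA, CTSB, CTSC, CTSD, CTSH, CTSL and CTSZ), the lysosome-associated membrane proteins LAMP1 and LAMP2, and TFEB, a transcription factor of lysosomal genes. They were picked by gene symbol, and all 10 symbols were found among the 12180 protein-coding genes listed. The same symbols held 32 of the 33090 listed protein-coding transcripts. RNA-seq had been done on TE1 (TE-1) cells, a line from a human esophageal squamous cell carcinoma (ESCC). There were 3 NC libraries, from cells that carried a lentiviral control with random nonsense sequences, and 3 FGL1-OE libraries, from cells given a lentivirus that overexpresses FGL1, a secreted fibrinogen-like protein. The methods describe puromycin selection of the lines with modified FGL1 expression and do not say it of the NC cells. The labels call the genotype of the control cells WT, whereas the methods describe the NC vector, and the name NC is used here. Whether the 3 libraries of a group came from separate cultures is not given, so p-values measure only the spread between these libraries, which may be technical.

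The lysosome is the acidic compartment in which cells break down proteins, sugars and lipids that arrive by endocytosis and autophagy. Cathepsins are its proteases. They are made as inactive precursors, reach the lysosome mostly by mannose 6-phosphate sorting, and can also be secreted, where they cut matrix proteins around tumor cells. LAMP1 and LAMP2 are heavily glycosylated proteins that line the inner face of the lysosomal membrane. TFEB, when it is not held in the cytoplasm by mTORC1 signaling, binds an E-box-like element in the promoters of many lysosomal and autophagy genes.

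The sorting tails of the LAMP proteins are shown first because LAMP2 transcripts differ in them. Each listed LAMP transcript ended its coding sequence with a glycine-tyrosine stretch that directs the protein to lysosomes. The last 45 coding bases are given 5′ to 3′ from GENCODE v29 (GRCh38), with the 5 codons of that stretch, which stand directly before the stop codon, in capitals. LAMP2-201 encodes LAMP2A, a receptor of chaperone-mediated autophagy, LAMP2-202 encodes LAMP2B, and LAMP2-203 encodes LAMP2C.
LAMP1-201: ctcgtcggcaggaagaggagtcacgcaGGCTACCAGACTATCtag
LAMP2-201: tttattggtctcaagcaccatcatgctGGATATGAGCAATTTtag
LAMP2-202: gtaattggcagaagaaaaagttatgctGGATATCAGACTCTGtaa
LAMP2-203: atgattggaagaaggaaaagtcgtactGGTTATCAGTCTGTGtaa

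The LAMP2 transcripts shared their first 1094 coding bases and then differed over 139 bases in LAMP2-201, 139 in LAMP2-202 and 142 in LAMP2-203, stop codon included, since each ends in its own last coding exon. The gene lies on the minus strand of chromosome X, and the coding parts of these exons, without the stop codon, are at chrX:120431326-120431462 for LAMP2-201, chrX:120439157-120439293 for LAMP2-202 and chrX:120428487-120428626 for LAMP2-203 (GRCh38).

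The letters CACGTG, the core of the element that TFEB binds, and its longer form TCACGTGA were looked for in RefSeq promoters (GRCh38.p14), which run from 250 bases before to 50 bases after a start site. Both words read the same on either strand, and every TCACGTGA holds a CACGTG. Promoters were matched for 8 of the 10 genes, and CTSB and LAMP2 had no entry. CACGTG was present in 3 of these 8 genes, with 6 copies in LAMP1, 2 in CTSA and 1 in CTSD, and TCACGTGA was present in LAMP1 (2 copies) and CTSA (1 copy). Over all promoters of the same length, 7.26% held CACGTG and 0.980% held TCACGTGA. Counted by gene, 8.775% of all genes had a promoter with CACGTG and 1.18% had one with TCACGTGA. The promoters of CTSC, CTSH, CTSL, CTSZ and TFEB held neither word, which says only that these letters are not in these windows. For each of the 3 genes with a match, the 30 bases around the copy nearest to the start site, among copies whose 30-base window ends before the start, are given 5′ to 3′ on the strand of the gene, with the match in capitals. The matches begin 29 bases upstream of the start in LAMP1 (chr13:113297199-113297228, plus strand), 26 in CTSA (chr20:45891298-45891327, plus strand) and 47 in CTSD (chr11:1763957-1763986, minus strand).
LAMP1: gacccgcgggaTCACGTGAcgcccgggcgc
CTSA: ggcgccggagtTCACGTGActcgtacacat
CTSD: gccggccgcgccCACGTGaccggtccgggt

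The values are FPKM, fragments per kilobase of transcript, scaled to the mapped fragments of the library, so levels of different genes are per length. The number of reads behind them is unknown, and the gene table added up to between 210904 and 226307 FPKM per library. FGL1 was listed at 0.0202, 0 and 0.106 FPKM in NC 1 to 3 and at 33.5, 39.3 and 39.9 FPKM in FGL1-OE 1 to 3. The log2 fold change of FGL1 was 5.21 (SE 0.15, limma adjusted p = 1.29e-05), and the groups stood far apart in the direction of the labels. This value has 1 added to each FPKM before the log. With 0.1 added instead it was 8.12, so its size depends on that constant. Of 10 squamous epithelial markers 8 were listed (KRT14 and PKP1 were not), with a summed level of 509 to 799 FPKM in NC and 718 to 796 FPKM in FGL1-OE. Most of that sum came from SFN, KRT6A and EPCAM, with means of 328, 163 and 107 FPKM over the 6 libraries. KRT5 averaged only 5.25 FPKM, and TP63 did not reach the filter of a mean of 0.5 FPKM. In this list CDH1 (log2 fold change 0.54, SE 0.20) and KRT6A (0.50, SE 0.18) had an unadjusted p under 0.05 and no overlap between groups, and their part in the results that follow was not tested. Of all genes tested, 2.01% had such a p and 4.09% were higher without overlap. Macrophages, which are rich in cathepsins, had 2 of 10 markers listed (CD14 and CSF1R, summing to 1.86 to 3.18 FPKM in NC and 1.63 to 1.85 FPKM in FGL1-OE), while PTPRC and CD163 were not listed. Fibroblast markers had 3 of 8 listed (COL1A1, COL1A2 and LUM, 2.29 to 8.11 FPKM in NC and 3.24 to 8.27 FPKM in FGL1-OE).

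The 3 NC libraries lay further apart than the 3 FGL1-OE libraries, and this touches every result that follows. On the log2(FPKM + 1) scale, the median SD of a gene was 0.308 across NC and 0.121 across FGL1-OE, and NC 1 and NC 2 stood apart in opposite directions. Relative to the mean of the 6 libraries, genes of high GC content were higher in NC 1 (Spearman's rho 0.72 across 11773 genes, which are not independent replicates) and lower in NC 2 (rho −0.77). NC 3 had a rho of 0.46, and the FGL1-OE libraries had trends of both signs too (0.28, −0.55 and −0.35 in libraries 1 to 3). Results are therefore given with and without NC 1 and NC 2 where they change a call or a sign.

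The question of the comparison was whether FGL1 overexpression was accompanied by other levels of lysosomal protease and membrane protein mRNA. None of the 10 genes passed the test. All 10 had an adjusted p of 1.00 in limma, where 1 of the 12017 genes tested (0.00832%), FGL1 itself, passed the threshold of 0.05. None had an unadjusted p under 0.05, which 2.01% of all genes tested did. In none did the 3 FGL1-OE libraries lie outside the range of the 3 NC libraries on one side, which 7.15% of all genes did. The median log2 fold change was 0.03 over the 10 genes and 0.02 over all genes tested, with 6 genes higher and 4 lower in FGL1-OE, and 53.7% of all genes were higher. In bulk libraries, fewer cells that express a gene and less RNA per cell cannot be told apart.

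**Figure D1:**
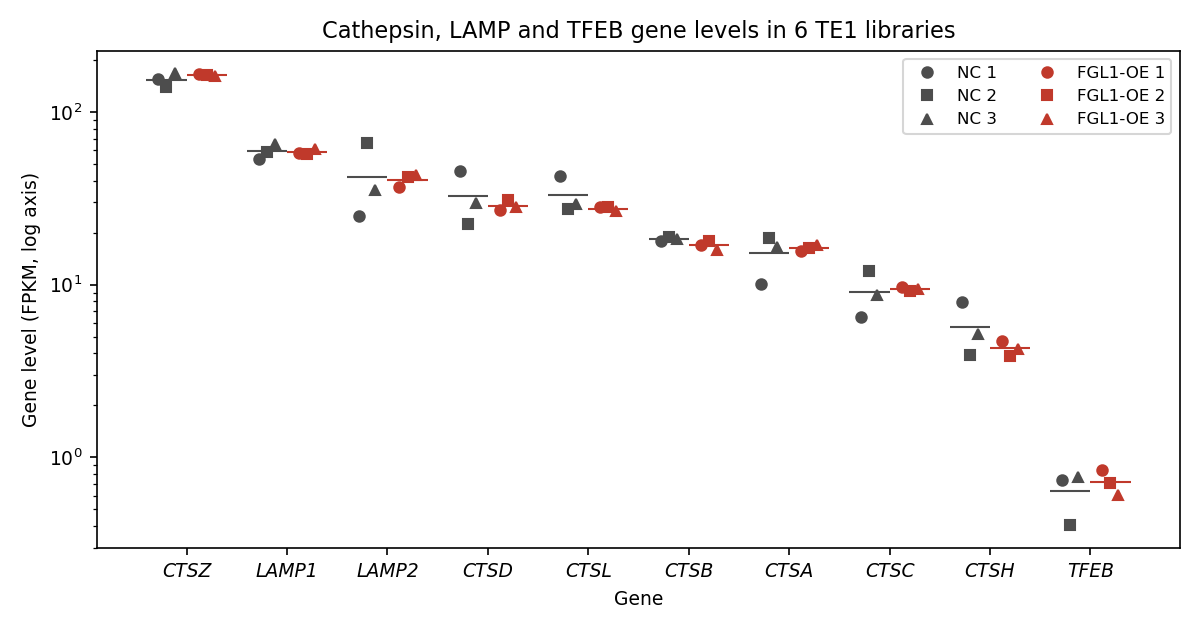
Level of each gene in FPKM (log axis) in the 3 NC libraries (grey) and the 3 FGL1-OE libraries (red), with a horizontal line at each group mean; genes are in order of their mean over 6 libraries, from CTSZ to TFEB. The NC points of LAMP2, CTSD, CTSA and CTSC spread widely around tightly grouped FGL1-OE points. Those of CTSH reach well above its FGL1-OE points but not below them, and the groups overlap for all 10 genes.

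Among the cysteine cathepsins, which share the papain fold, CTSZ, a carboxypeptidase that removes single C-terminal residues, was the most abundant. CTSZ (chromosome 20, 57570240 to 57582302, GRCh37) was at 156, 140 and 168 FPKM in NC and at 167, 165 and 162 FPKM in FGL1-OE. The FGL1-OE values lay inside the NC range, and the log2 fold change was 0.10 (SE 0.14, limma unadjusted p = 0.525), with a 95% interval from −0.24 to 0.43. CTSB, an endopeptidase and peptidyl-dipeptidase often studied in tumor invasion, was at 17.9, 18.8 and 18.4 FPKM in NC and at 17.0, 18.0 and 16.0 FPKM in FGL1-OE. It was the tightest gene across NC, and 2 of 3 FGL1-OE libraries lay just under all NC libraries. Its log2 fold change of −0.11 (SE 0.14, unadjusted p = 0.461) had an interval from −0.43 to 0.21.

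CTSL, a potent endopeptidase that also matures other cathepsins, was at 42.7, 27.5 and 29.5 FPKM in NC and at 28.1, 28.2 and 26.6 FPKM in FGL1-OE. NC 1 alone stood above the other 5 libraries, which lay within 3 FPKM of each other. The log2 fold change was −0.23 (SE 0.19, unadjusted p = 0.264), and it shrank to −0.04 without NC 1. CTSH, an aminopeptidase, was at 7.90, 3.91 and 5.21 FPKM in NC and at 4.73, 3.88 and 4.22 FPKM in FGL1-OE. Its log2 fold change of −0.30 was the lowest of the 10 (SE 0.23, unadjusted p = 0.231, interval −0.83 to 0.24), and again NC 1 was the highest library, with −0.07 left without it. CTSC, the dipeptidyl peptidase that activates serine proteases of immune granules, was at 6.51, 12.0 and 8.67 FPKM in NC and at 9.74, 9.20 and 9.49 FPKM in FGL1-OE. Here NC 1 was the lowest and NC 2 the highest library, around FGL1-OE values that nearly coincided, and the log2 fold change was 0.09 (SE 0.21, unadjusted p = 0.675).

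The other catalytic classes did the same. CTSD, the main aspartic protease of the lysosome, was at 45.5, 22.6 and 29.9 FPKM in NC and at 26.9, 30.9 and 28.1 FPKM in FGL1-OE. NC 1 and NC 2 were the highest and the lowest of all 6 libraries, and the log2 fold change was −0.13 (SE 0.25, unadjusted p = 0.612). Of the 31-base words in the listed CTSD transcripts, 50.2% also occur in another annotated gene, AC068580.4, so how the reads were split between them is uncertain. CTSA, a serine carboxypeptidase that also protects lysosomal beta-galactosidase and neuraminidase, was at 10.1, 18.8 and 16.6 FPKM in NC and at 15.7, 16.4 and 17.0 FPKM in FGL1-OE. Only NC 1 stood apart, below the other 5 libraries, and the log2 fold change was 0.14 (SE 0.23, unadjusted p = 0.551, interval −0.39 to 0.67).

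LAMP1, the most widely used marker of lysosomes, was at 53.6, 58.7 and 65.3 FPKM in NC and at 58.3, 57.4 and 61.5 FPKM in FGL1-OE. The groups had nearly the same mean, and the log2 fold change was 0.00039 (SE 0.15, limma unadjusted p = 0.998), with a 95% interval from −0.34 to 0.34. LAMP2 was at 24.9, 66.3 and 35.2 FPKM in NC and at 36.8, 42.0 and 43.1 FPKM in FGL1-OE. The NC libraries alone spanned the whole range of this gene, and its interval, from −0.70 to 0.82 around a log2 fold change of 0.06 (SE 0.33, unadjusted p = 0.854), was the widest of the 10. TFEB was at 0.734, 0.404 and 0.772 FPKM in NC and at 0.846, 0.713 and 0.604 FPKM in FGL1-OE. At these low levels the groups overlapped, with NC 2 the lowest library, and the log2 fold change was 0.08 (SE 0.16, unadjusted p = 0.638, interval −0.29 to 0.45). The pseudocount of 1 makes this an understatement of any change in a gene at such a level.

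**Figure D2:**
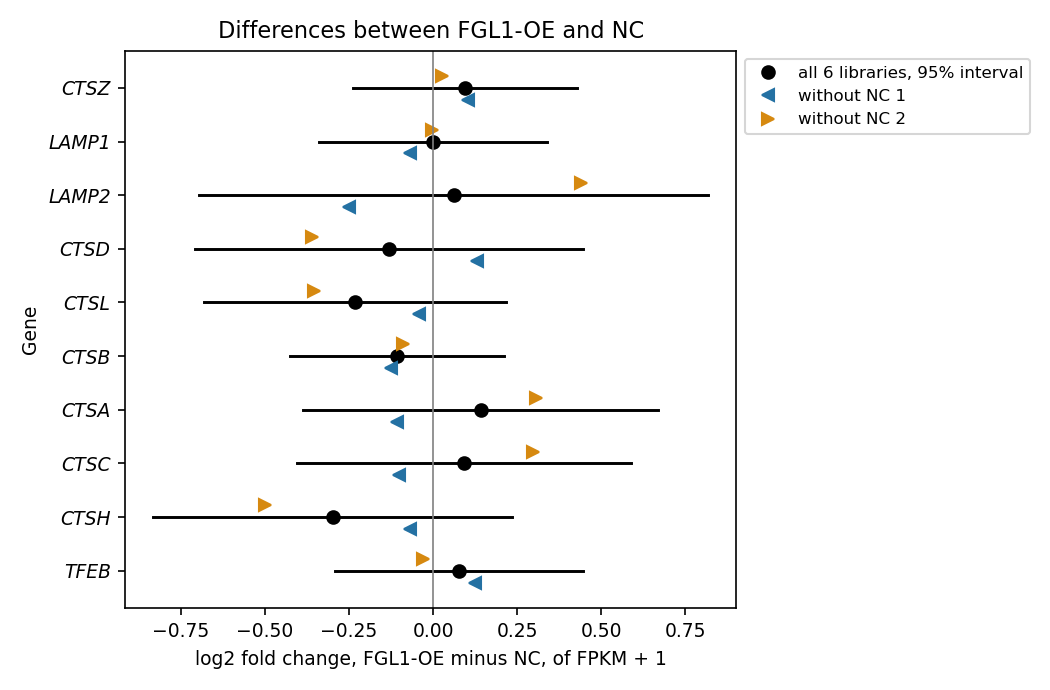
Log2 fold change of FPKM + 1 (x axis, FGL1-OE minus NC) of each gene (y axis), with its 95% interval from limma (black) and the value without NC 1 (blue, pointing left) or without NC 2 (orange, pointing right). All 10 intervals hold 0, and for LAMP2, CTSD, CTSA, CTSC and TFEB the values without NC 1 and without NC 2 lie on opposite sides of 0.

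The exact two-sided permutation test of each gene, in which 3 against 3 libraries cannot give less than 0.1, gave p-values from 0.2 to 1.0. Without NC 2, CTSH (log2 fold change −0.50, limma unadjusted p = 0.0286) and LAMP2 (0.44, unadjusted p = 0.0417) had an unadjusted p under 0.05, and the groups did not overlap for CTSC, CTSH, CTSL and LAMP2. Of all genes tested, 21.8% then had such a p and 42.8% did not overlap, and the smallest adjusted p of the 10 genes was 0.204. Without NC 1, no unadjusted p was under 0.05, and the log2 fold changes of CTSA (−0.11), CTSC (−0.10), CTSD (0.13), LAMP1 (−0.07) and LAMP2 (−0.25) had the other sign.

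Within NC the genes fell into sets that ran in opposite directions. CTSD, CTSH and CTSL were highest in NC 1 and lowest in NC 2, whereas CTSA, CTSC and LAMP2 were lowest in NC 1 and highest in NC 2. From NC 1 to NC 2 the log2 difference was 1.38 for LAMP2, 0.83 for CTSA and 0.80 for CTSC, and it was −0.98 for CTSD, −0.86 for CTSH and −0.62 for CTSL. CTSZ (−0.16), CTSB (0.07), LAMP1 (0.13) and TFEB (−0.30) differed less. These differences between libraries of the same group exceeded every difference between the groups for those 6 genes. On the log2 scale, the SD was larger in NC than in FGL1-OE for 9 of the 10 genes, all but CTSB, as for 84.1% of all genes tested.

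The GC content of the most abundant listed transcript moved with this for some of the genes. LAMP2 had the lowest GC content of the 10 (37.7%) and the largest difference between NC 2 and NC 1, and CTSD had the highest (63.9%) and the most negative one. Over all genes, the median difference was 0.92 in the 10% of genes with the lowest GC content and −0.94 in the 10% with the highest. With the GC and length trend of each library removed, a step chosen after seeing the data, the difference fell to 0.51 for LAMP2, 0.35 for CTSC and −0.14 for CTSD. It was still −0.74 for CTSH and −0.57 for CTSL. It became larger for the other 5 genes, at 1.30 for CTSA (GC content 58.6%), 0.33 for CTSB, 0.37 for LAMP1, 0.31 for CTSZ and 0.47 for TFEB, and the sign turned for CTSZ and TFEB. The groups did not overlap for CTSL in that setting, where 14.0% of all genes did not overlap, and the log2 fold changes of the 10 genes lay between −0.30 (CTSH) and 0.18 (CTSA).

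**Figure D3:**
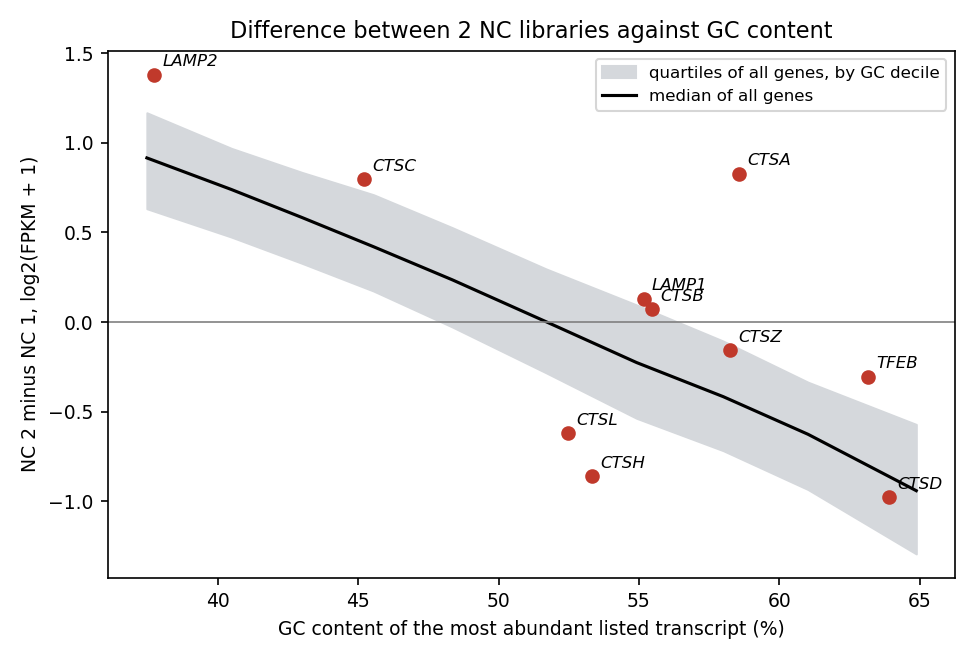
Difference between NC 2 and NC 1 in log2(FPKM + 1) (y axis) against GC content of the most abundant listed transcript in percent (x axis); the line and band are the median and quartiles of all tested genes in 10 bins of GC content, and red points are the 10 genes. LAMP2 and CTSD lie at the ends of the downward trend, while CTSA lies far above it and CTSH and CTSL below it.

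The transcript table split CTSB in an all-or-none way that the gene table did not show. CTSB-228 (ENST00000533455) was at 55.6, 0.033 and 0.0038 FPKM in NC and at 49.3, 58.8 and 53.6 FPKM in FGL1-OE. CTSB-232 (ENST00000534510) was at 0, 63.3 and 59.7 FPKM in NC and at 0.0075, 0.0029 and 0.032 FPKM in FGL1-OE. Each library thus listed 1 of the 2 transcripts at between 49.3 and 63.3 FPKM and the other near 0, and NC 1 had the form listed in FGL1-OE. CTSB-232 was not among the transcripts that the naming rule picked, and it was singled out after its values were seen. The log2 fold changes were 3.82 for CTSB-228 (SE 1.56, limma unadjusted p = 0.048) and −3.96 for CTSB-232 (SE 1.60, unadjusted p = 0.046), both with an adjusted p of 1.00. They were the only ones of 31 tested transcripts of these genes with an unadjusted p under 0.05, which 3.53% of all 30330 transcripts had, and none of the 31 passed the adjusted threshold, which 0.0165% of all did. The groups overlapped for all 31, whereas they did not for 8.22% of all transcripts. Without NC 1, CTSB-228 had a log2 fold change of 5.75 (limma adjusted p = 0.0149), and 6 of all 30330 transcripts, both CTSB forms among them, then passed the threshold, so the call rests on whether that library is counted. The share of CTSB-228 in the summed CTSB transcripts averaged 29.6% in NC and 92.9% in FGL1-OE (exact two-sided permutation p = 0.1, the smallest possible here), with NC 1 at 88.7%, just below the lowest FGL1-OE library at 88.9%. How often shares did not overlap between the groups among all transcripts was not counted.

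The sum of CTSB-228 and CTSB-232 hardly moved. It was 55.6, 63.3 and 59.7 FPKM in NC and 49.3, 58.8 and 53.7 FPKM in FGL1-OE (exact two-sided permutation p = 0.2). The transcripts are close relatives. Both have 11 exons and the same coding sequence of 339 residues, so they encode the same protein. In GENCODE v29 they differ in 1 noncoding exon, of 88 bases in CTSB-228 (chromosome 8, 11864376 to 11864463, GRCh38) and of 83 bases in CTSB-232 (11857858 to 11857940), and in the end of the last exon, of 868 and 853 bases. None of the 31-base words of CTSB-228 (0%) and 5.72% of those of CTSB-232 were in no other listed CTSB transcript. These words were compared with all other listed CTSB transcripts together, not with the other of the pair alone. How reads were assigned to the pair was not tested. The other 3 listed CTSB transcripts were between 0 and 4.73 FPKM in each library.

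Large swings in share within a group were not particular to CTSB. They were counted at a looser cut than the CTSB-228 swing within NC, from 88.7% to 0.0059%, and swings of that size were not counted. Of 8054 genes with at least 2 listed transcripts, 19.2% had a transcript that held 50% or more of the summed FPKM in 1 NC library and 5% or less in another, and 14.9% had such a swing within FGL1-OE. Among the 4337 of these genes with a summed transcript level of at least 10 FPKM, as CTSB has, the shares were 12.4% and 9.61%. Of the 7 genes here with at least 2 listed transcripts, 1 had it within NC (CTSB) and 1 within FGL1-OE (CTSD). CTSD-207, the leading form of CTSD, was at 16.0, 13.1 and 34.1 FPKM in NC and at 26.0, 0 and 16.3 FPKM in FGL1-OE. Its value of 0 in FGL1-OE 2 is set beside a CTSD gene level there, 30.9 FPKM, that was the highest of that group.

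**Figure D4:**
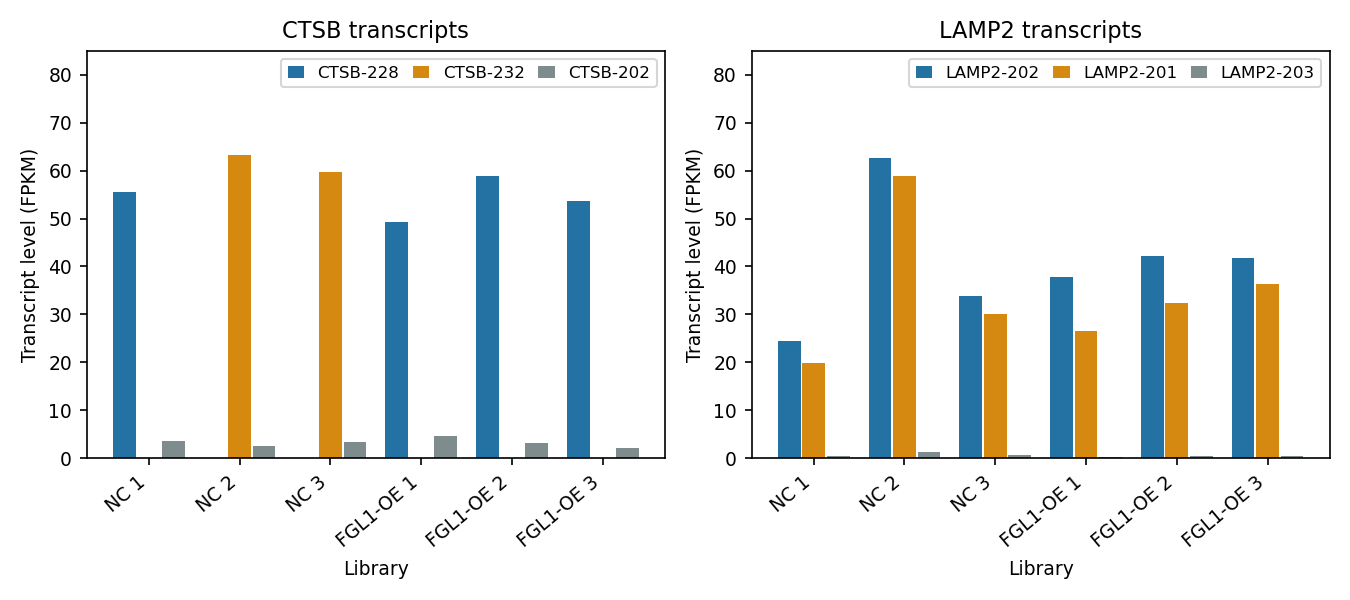
Level in FPKM (y axis) of the 3 most abundant CTSB transcripts (left) and the 3 LAMP2 transcripts (right) in each of the 6 libraries (x axis); each bar is 1 library. CTSB-228 is high in NC 1 and all FGL1-OE libraries and CTSB-232 in NC 2 and NC 3, whereas LAMP2-202 and LAMP2-201 are both lowest in NC 1 and highest in NC 2.

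LAMP2 was divided mostly between LAMP2B and LAMP2A in every library, while the level of the gene varied. LAMP2B was the larger form throughout, with a share from 50.9% in NC 2 to 58.3% in FGL1-OE 1. LAMP2-202 (LAMP2B) was at 24.6, 62.6 and 33.9 FPKM in NC and at 37.8, 42.3 and 41.8 FPKM in FGL1-OE. LAMP2-201 (LAMP2A) was at 19.9, 58.8 and 30.02 FPKM in NC and at 26.6, 32.3 and 36.3 FPKM in FGL1-OE. Both were highest in NC 2 and lowest in NC 1. LAMP2-202 held on average 52.7% of the summed LAMP2 transcript FPKM in NC and 56.0% in FGL1-OE (exact two-sided permutation p = 0.2). The ratio of LAMP2-202 to LAMP2-201 was 1.23, 1.06 and 1.13 in NC and 1.42, 1.31 and 1.15 in FGL1-OE, with 1 FGL1-OE library inside the NC range (exact permutation p = 0.2). LAMP2-203 (LAMP2C) was scarce, at 0.396, 1.39 and 0.585 FPKM in NC and at 0.326, 0.579 and 0.407 FPKM in FGL1-OE. Its share was 0.973% in NC and 0.597% in FGL1-OE, and the shares did not overlap, which gives the smallest p that the exact permutation test allows here, 0.1. How often shares did not overlap among all transcripts was not counted, so this is not read as a difference.

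Transcript shares of the other genes overlapped between the groups. CTSL-203, the leading form of CTSL, was at 25.5, 12.6 and 14.8 FPKM in NC and at 14.9, 12.4 and 11.8 FPKM in FGL1-OE. Its share was 70.9% in NC and 60.2% in FGL1-OE (exact permutation p = 0.2). CTSA-203 was at 23.7, 39.1 and 34.5 FPKM in NC and at 9.44, 35.1 and 44.4 FPKM in FGL1-OE, so the lowest and the highest library both belonged to FGL1-OE. CTSH-201 held 45.2%, 75.7% and 89.2% of CTSH in NC and 33.9%, 21.1% and 94.2% in FGL1-OE, a spread within each group wider than the difference between them. CTSC was dominated by CTSC-201 in every library (21.8, 55.1 and 29.6 FPKM in NC and 40.7, 41.2 and 43.3 FPKM in FGL1-OE). CTSZ, LAMP1 and TFEB had 1 listed transcript each. CTSZ-201 was at 185 to 213 FPKM in NC and 210 to 219 FPKM in FGL1-OE, LAMP1-201 was at 109 to 136 FPKM in NC and 118 to 127 FPKM in FGL1-OE, and TFEB-201, which did not pass the filter of a mean of 0.5 FPKM, was at 1.54, 0.053 and 0 FPKM in NC and at 0.030, 0 and 0 FPKM in FGL1-OE. A gene level in these tables does not equal the total of its transcripts, and levels are compared within each table only.

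In order of the mean level over the 6 libraries, CTSZ (159.6 FPKM) stood above LAMP1 (59.1), LAMP2 (41.4), CTSD (30.7), CTSL (30.4), CTSB (17.7), CTSA (15.8), CTSC (9.28), CTSH (4.97) and TFEB (0.679). CTSZ was above 98.8% of listed genes and TFEB above 5.07%. The ranges over the libraries were separate between CTSZ and LAMP1, between CTSL and CTSB and between CTSH and TFEB, and every other pair of neighbours overlapped. The genes whose pattern over the 6 libraries was nearest to the median pattern of the 10 were SMARCC2, OIP5 and MOV10, with a root mean square distance of 0.019, 0.027 and 0.028 on the log2(FPKM + 1) scale among 6543 genes with a mean of at least 5 FPKM. That median pattern was nearly flat, since the genes that ran in opposite directions within NC offset each other.

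The other genes of the lysosome gave a like picture, and none of them had an adjusted p under 0.05. Of 14 other lysosomal peptidases 8 were listed and tested, 4 higher and 4 lower, with a median log2 fold change of −0.05. That median was 0.05 among those with a mean of at least 1 FPKM, −0.11 without NC 1, −0.09 without NC 2 and −0.20 without FGL1-OE 2. LGMN, the asparaginyl endopeptidase that processes cathepsins, was the most abundant of them, at 24.2, 19.1 and 24.5 FPKM in NC and at 25.8, 22.4 and 22.1 FPKM in FGL1-OE. CTSV, a close relative of CTSL, was at 8.94, 7.42 and 8.83 FPKM in NC and at 4.50, 6.75 and 7.29 FPKM in FGL1-OE. Its groups did not overlap (log2 fold change −0.41, SE 0.20, limma unadjusted p = 0.0726), and 3.06% of all genes tested were lower without overlap. SCPEP1, a serine carboxypeptidase related to CTSA and named here after its values were seen, was the only gene of this list with an unadjusted p under 0.05. Its values were 8.56, 8.62 and 7.91 FPKM in NC and 6.13, 5.98 and 6.25 FPKM in FGL1-OE, all FGL1-OE values below all NC values (log2 fold change −0.40, SE 0.13, unadjusted p = 0.0201). With any FGL1-OE library left out, no gene of the list had such a p. The count was 1 without NC 1 or NC 3. It was 3 without NC 2, where 21.8% of all genes had such a p.

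Of 11 inhibitors of cathepsins 4 were listed, and all 4 had higher means in FGL1-OE, with a median log2 fold change of 0.26 and no unadjusted p under 0.05. That median was 0.20 without NC 1 and 0.20 without NC 2. CST3 and CST6, named after their values were seen, had NC 2 as the lowest library, and without it their means were lower in FGL1-OE. CST3 was at 29.5, 17.0 and 28.4 FPKM in NC and at 29.8, 23.7 and 25.4 FPKM in FGL1-OE. CST6 was at 23.0, 14.5 and 27.5 FPKM in NC and at 30.3, 19.1 and 23.9 FPKM in FGL1-OE. CSTB, also named after its values were seen, had the largest log2 fold change of the 4 (0.34, SE 0.27). Its values were 13.8, 30.3 and 25.6 FPKM in NC and 30.3, 26.8 and 27.9 FPKM in FGL1-OE, with NC 1 far below the other libraries. SERPINB1, which inhibits neutrophil serine proteases such as cathepsin G and was the most abundant of the 4, was at 25.9, 39.7 and 35.1 FPKM in NC and at 41.9, 43.6 and 40.2 FPKM in FGL1-OE. Its groups did not overlap (log2 fold change 0.33, SE 0.19, unadjusted p = 0.115), and 4.09% of all genes tested were higher without overlap.

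Of 19 other lysosomal membrane proteins 18 were tested, 14 higher and 4 lower, with a median of 0.04 (0.17 without NC 2 and −0.0031 without NC 1). LAPTM4A, the most abundant, was at 55.1, 145 and 79.9 FPKM in NC and at 99.2, 98.8 and 100.2 FPKM in FGL1-OE, the same order of NC libraries as LAMP2. NPC1, the cholesterol exporter of lysosomes, was at 3.74, 4.10 and 3.97 FPKM in NC and at 4.80, 5.34 and 4.97 FPKM in FGL1-OE, with no overlap (log2 fold change 0.29, SE 0.14, unadjusted p = 0.0686). NPC1 was the only gene of this list without overlap, and 4.09% of all genes tested were higher without overlap. Of 19 subunits of the V-ATPase, the proton pump that acidifies lysosomes, 18 were tested, 14 higher and 4 lower, with a median of 0.14 that fell to 0.02 without NC 1. Only ATP6V0C, named after its values were seen, had an unadjusted p under 0.05 in limma (log2 fold change 0.52, SE 0.21), and none did with a pseudocount of 0.1, with scaling to a common sum, with quantile normalization or without NC 3, FGL1-OE 2 or FGL1-OE 3. Its values were 46.5, 54.1 and 43.7 FPKM in NC and 52.0, 77.7 and 81.4 FPKM in FGL1-OE, with FGL1-OE 1 inside the NC range. ATP6V1G1, the most abundant subunit, was at 98.7, 126 and 110 FPKM in NC and at 89.9, 104 and 100.4 FPKM in FGL1-OE, while ATP6V0A4 was at 1.76 to 1.95 FPKM in NC and 2.07 to 2.26 FPKM in FGL1-OE, without overlap. ATP6V0A4 was the only subunit without overlap, again beside 4.09% of all genes tested that were higher without overlap.

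Of 33 glycosidases, sulfatases and lipid hydrolases 32 were tested, 20 higher and 12 lower, with a median of 0.08 and none with an unadjusted p under 0.05. PSAP, the precursor of saposins and the most abundant gene of all these lists, was at 753, 437 and 632 FPKM in NC and at 540, 478 and 507 FPKM in FGL1-OE. FUCA1, a fucosidase, was at 37.7, 47.7 and 45.6 FPKM in NC and at 52.5, 50.2 and 52.3 FPKM in FGL1-OE. HYAL1, a hyaluronidase, was at 1.86 to 2.21 FPKM in NC and 1.31 to 1.51 FPKM in FGL1-OE. The groups did not overlap in either, with log2 fold changes of 0.25 (SE 0.15) and −0.32 (SE 0.14). Of the 32 tested, 2 were higher and 1 was lower without overlap. Of all genes tested, 4.09% were higher and 3.06% lower without overlap.

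Of 18 genes of the TFEB family and its regulators 17 were tested, 9 higher and 8 lower, with a median of 0.02 (−0.028 without NC 1 and 0.0055 without NC 2). RRAGD, a Rag GTPase that links nutrients to mTORC1, was at 2.31, 1.60 and 1.499 FPKM in NC and at 1.08, 1.12 and 1.27 FPKM in FGL1-OE, without overlap (log2 fold change −0.37, SE 0.16, unadjusted p = 0.0569). RRAGD was the only gene of this list without overlap, and 3.06% of all genes tested were lower without overlap. LAMTOR2, the most abundant of this list, was at 39.7, 30.6 and 36.0 FPKM in NC and at 41.6, 32.3 and 32.0 FPKM in FGL1-OE. All 11 genes of mannose 6-phosphate sorting were tested, 6 higher and 5 lower, with a median of 0.01 and no groups without overlap. That median was −0.047 without NC 1 and 0.011 without NC 2. M6PR, a mannose 6-phosphate receptor and the most abundant of them, was at 14.9, 27.9 and 34.5 FPKM in NC and at 39.9, 15.7 and 19.0 FPKM in FGL1-OE, a wide spread within both groups. Without NC 2, an unadjusted p under 0.05 was reached by 6 of the hydrolases, 5 genes of the TFEB family and its regulators, 4 other membrane proteins, 3 other peptidases, 1 inhibitor, 1 V-ATPase subunit and 1 gene of mannose 6-phosphate sorting, and by 21.8% of all genes.

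**Figure D5:**
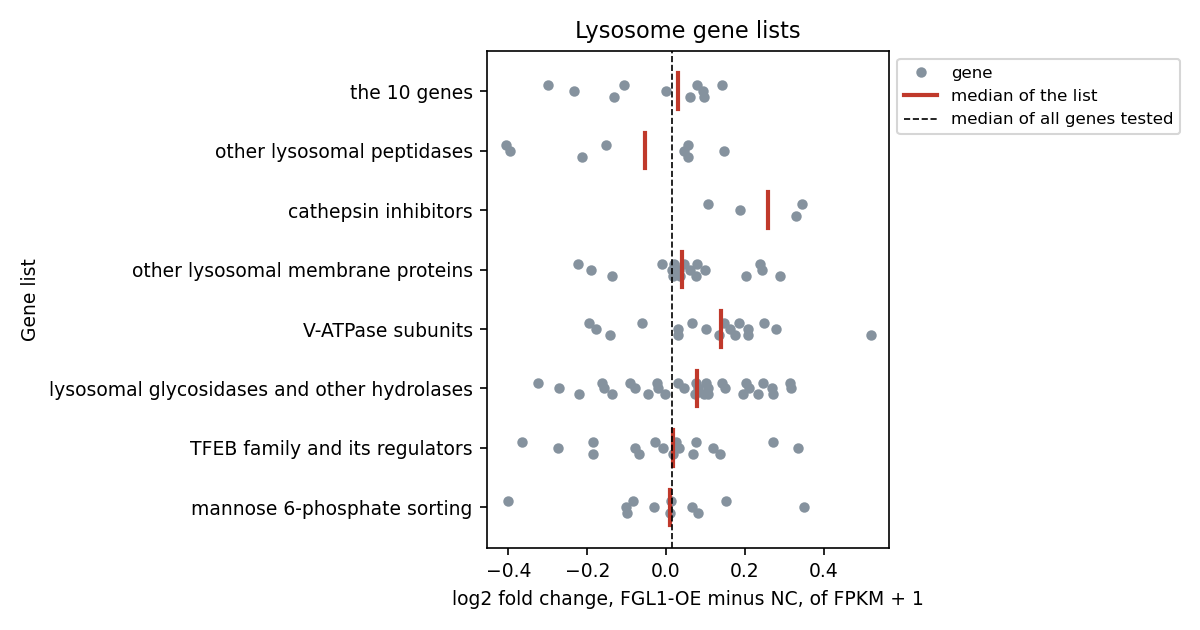
Log2 fold change of FPKM + 1 (x axis, FGL1-OE minus NC) of each tested gene (grey points) in the lysosomal gene lists (y axis), with the median of each list (red) and of all genes tested (dashed, 0.02). List medians lie between −0.05 and 0.26, and the highest, that of the cathepsin inhibitors, is a median of 4 genes.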

How the data were processed

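TE1 libraries, 3 NC and 3 FGL1-OE, were grouped by the genotype in the labels and their RNA-seq values compared. mRNA was enriched with oligo(dT) beads, and stranded libraries were sequenced on an Illumina NovaSeq. Per the submitters' processing notes, StringTie and GRCh37 were used. The aligner, the StringTie version and the annotation are not given in the sources used here. The authors deposited FPKM values per library, for protein-coding genes and transcripts only, beside columns of their own group means, fold changes and p-values, which were not used. FPKM times transcript length showed no steps of whole reads, so the depth is unknown and no counting intervals are given.

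Tests covered the 12017 genes and 30330 transcripts whose mean over the libraries reached 0.5 FPKM. They used the lmFit and eBayes steps of limma 3.58.1 (R 4.3.3) with log2(FPKM + 1) as the response, without covariates, with Benjamini-Hochberg adjustment over the whole table and a threshold of 0.05. Fold changes on this scale understate changes of low genes. Transcript shares were compared with an exact two-sided permutation test (smallest p 0.1). The code was tested on simulated data. GC content, exons and coding sequence came from GENCODE v29 (matched for 97.5% of genes and 99.6% of transcripts), and promoters from RefSeq.

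The genes and lists were chosen with earlier results of these data known. The genes and transcripts named are FGL1, the 10 genes and the most abundant transcript of each. From each lysosomal list, the most abundant gene and the largest rise and fall among genes whose groups do not overlap are named, and so would be any with an adjusted p under 0.05. The 3 genes nearest to the median pattern are named too. The alternatives were another pseudocount (0.1), dropping the filter or raising it to 1 FPKM, TPM scaling, quantile normalization, an ordinary linear model, a replicate block, the summed transcripts, leaving out each library and, chosen after seeing the data, removal of the GC and length trend.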

Additional observations from a re-analysis of the deposited data

How the results depend on the processing

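The depth is unknown, and 3 libraries a group with a wide spread in NC limit what could be called. In the 14 alternatives other than the summed transcripts, 0 of the 10 genes had an adjusted p under 0.05, with TFEB not tested at the filter of 1 FPKM. TFEB was not tested in the summed transcripts either, and there no other gene of the 10 had such a p. The count of genes at an unadjusted p under 0.05 was 0, and 0 to 2 with a library left out. The count of genes without overlap was 0, and it was 1 under quantile normalization (CTSB), 1 with the GC and length trend removed (CTSL) and 0 to 4 with a library left out. The median log2 fold change of the 10 genes, 0.03, lay between −0.069 (without NC 1) and 0.033 with a library left out. Of the transcripts, 0 passed the adjusted threshold, and 0 to 2 with a library left out (2 without NC 1, where 6 of all 30330 did). The 2 transcripts at an unadjusted p under 0.05 became 0 with a pseudocount of 0.1, with scaling to a common sum, in the ordinary linear model and after removal of the GC and length trend, and 0 to 3 with a library left out.

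Signs turned for LAMP1 with scaling to a common sum (−0.0068), for LAMP2 with the GC and length trend removed (−0.021) and for CTSH in the summed transcripts (0.089). With a library left out, the log2 fold changes ran from −0.11 to 0.31 for CTSA, −0.10 to 0.30 for CTSC, −0.36 to 0.13 for CTSD, −0.068 to 0.072 for LAMP1, −0.25 to 0.44 for LAMP2 and −0.029 to 0.14 for TFEB. They ran from −0.76 to 0.30 for CTSA-203, −2.29 to 0.089 for CTSD-207, −1.17 to 0.12 for CTSH-201, −0.075 to 0.077 for LAMP1-201 and −0.18 to 0.48 for LAMP2-202, and the share of CTSA-203 ran from −28.8 to 3.73 percentage points. Beyond the construction of each alternative, the cause was not tested.

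Libraries with the same replicate number deviated together with r = 0.345, 0.282 and −0.061 over 12017 genes, so the numbers do not mark pairs by the rule that every r exceeds 0.1. With the replicate block, 0 of the 10 genes and 0 of the 31 transcripts passed the adjusted threshold, 1 gene of all did, and 298 genes against 242 had an unadjusted p under 0.05. The block brought 3 transcripts under an unadjusted p of 0.05, CTSB-228, CTSB-232 and CTSA-202, and 3.47% of all transcripts.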
